A study of Mus musculus with 22 samples.

Results

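Inguinal white fat is a subcutaneous pad that lies over the muscles of the hind limb and flank, and RNA of skeletal muscle genes was measured in it in every mouse examined. The genes described are 37 genes of the skeletal muscle fibre, picked by name; for each, the probe set that carried its symbol and no other gene's was used, the brightest where there were several. All 37 were measured, of 22180 genes on the array, 34 through 1 such probe set and 3 (Ckm, Ryr1 and Xirp2) through the brighter of 2. The mice were males aged 3 to 4 months on a C57BL/6 background, either wild type or PPARα-null, lacking the nuclear receptor that Ppara encodes. They had been backcrossed for more than 10 generations, and the null allele is carried in every tissue, muscle included. They had chow and water freely, spent 5 weeks at 28 °C, and then either stayed there or went to 21 °C for 1 week and to 5 °C for 10 days. Of 10 mice housed per group, 6 of each genotype kept at 28 °C and 5 of each genotype kept at 5 °C were put on arrays, 1 mouse per array and 22 arrays in all. The series asks whether browning of this pad in the cold needs PPARα.

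Skeletal muscle contracts through the sarcomere, in which thick filaments of myosin slide along thin filaments of actin, and calcium released from the sarcoplasmic reticulum acts on troponin to permit the sliding. Fibres come in fast types, which carry myosin heavy chains such as those of Myh4, Myh1 and Myh2, and slow types, which carry Myh7 and much myoglobin. Most sarcomere proteins have a fast and a slow isoform from separate genes, so a pair of such genes can report on the kind of fibre. Of the 37 genes, 13 were classed as fast-fibre isoforms and 7 as slow-fibre isoforms. The other 17 are used by both or were not classed. A class need not mean that a gene is confined to that kind of fibre. White adipocytes are not known to build sarcomeres.

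The pads were adipose by their markers: the mean of 9 measured white adipocyte genes was between 9.89 and 10.59 log2 units on every array. Brown and beige adipocyte markers were called higher in the cold in both genotypes, 10 of 10 genes each time, with median changes of 2.94 and 2.89. The Ppara probe set read 4.42 to 5.00 in wild-type and 4.14 to 5.45 in null mice at 28 °C, and 6.13 to 6.98 and 5.77 to 7.10 at 5 °C. These ranges overlap between the genotypes, so it cannot be used to check which mice are null. Correlations between pairs of arrays over all genes were 0.958 to 0.981. The sources used here give no scan date or other batch, so none could be examined.

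The muscle genes were set against the level of the median gene (4.63 to 4.77 log2 units, depending on the array). Of the 37, 17 were above it on every array, 19 on some arrays and 1, the slow troponin T gene Tnnt1, on none. Among the 19, Myh7, Tnni1, Myoz2 and Sln were above it on 1 array each and Myh2 on 3. Levels are log2 fluorescence values, in which a step of 1 is a doubling of signal, and they are not compared between genes because probes differ in brightness. In pieces of tissue, more muscle fibres in the piece and more RNA per fibre cannot be told apart.

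Ckm, the muscle form of creatine kinase, which buffers ATP during contraction, gives the scale of the variation. At 28 °C the 6 wild-type pads ran from 7.55 to 10.57 with a median of 8.69, and the 6 null pads from 6.07 to 9.20 with a median of 7.13. The cold wild-type pads read 7.64, 11.49, 6.39, 9.32 and 6.88, and the cold null pads 10.35, 7.34, 6.49, 6.58 and 8.21. All 4 groups overlapped. The lowest wild-type pad at 28 °C (7.55) lay above the median of either null group (7.13 and 7.34), whereas the other 3 groups reached down to 6.07, 6.39 and 6.49. Over the 22 pads, the highest and lowest were 43-fold apart in signal. Group means were 8.90 ± 1.08 (SD, n = 6) and 8.34 ± 2.08 (n = 5) in wild-type mice at 28 °C and 5 °C, and 7.32 ± 1.17 (n = 6) and 7.79 ± 1.59 (n = 5) in null mice.

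Acta1, the actin of the skeletal muscle thin filament, followed the same mice. It ran from 9.22 to 11.76 in wild-type and from 8.08 to 10.70 in null pads at 28 °C. In the cold it read 9.15, 12.13, 8.14, 10.62 and 8.45 in wild-type pads and 11.67, 8.67, 8.03, 8.33 and 9.47 in null pads. The pad with the most Ckm in each cold group, replicate 2 of the wild type and replicate 1 of the null, was also the pad with the most Acta1. Myh4, the heavy chain of the fastest fibres, gave 9.27, 12.53, 8.46, 11.15 and 8.84 in the cold wild-type pads, again highest in replicate 2 and lowest in replicate 3.

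**Figure D1:**
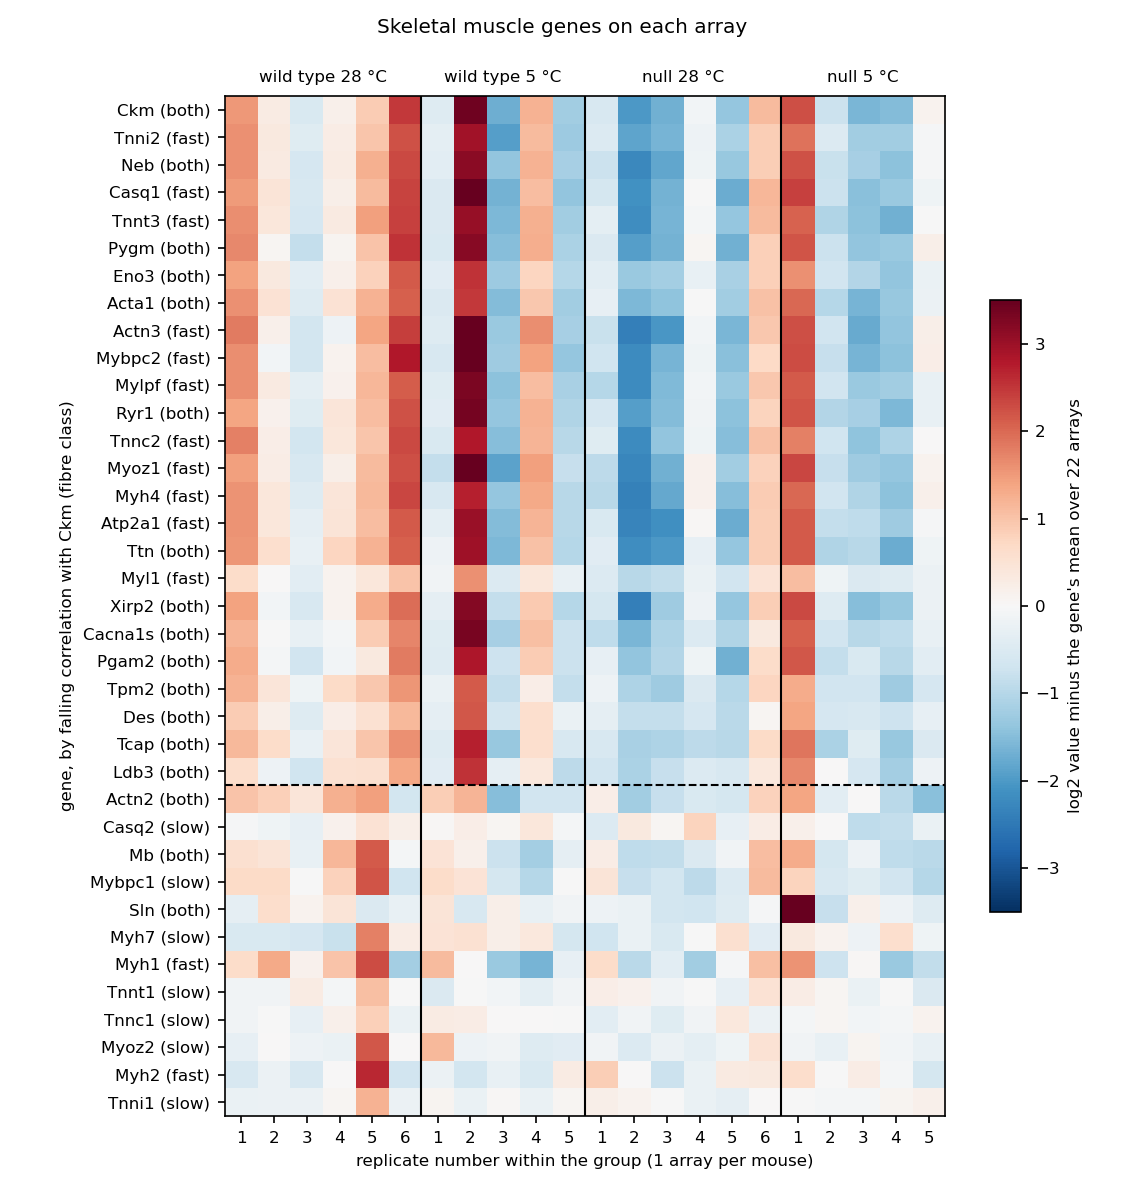
Each row is a gene and each column an array; colour is the log2 value minus the gene's mean over the 22 arrays, and genes run from Ckm downwards by falling correlation with it (both: used by both fibre types or not classed). Above the dashed line 24 genes repeat the pattern of Ckm column by column, and below it 12 do not, with replicate 5 of the wild-type group at 28 °C red in most of these.

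Within groups, muscle genes were among the most variable genes on the array. The SD between arrays of a group, pooled over the 4 groups, had a median of 1.16 log2 units over the 37 genes, against 0.22 over all 22180 genes. Of the 37, 30 were among the 222 genes (1%) with the largest SD, which began at 0.73, and 34 were in the upper 10%. The widest were Actn3, a fast-fibre α-actinin of the Z disc (SD 1.55, a 62.7-fold range of signal), Casq1, the fast-fibre calcium store protein (1.54), Mybpc2, the fast myosin-binding protein C (1.54), and Ckm (1.49). Lymphocyte genes shared the upper end with them: the B cell genes Cd79a and Ms4a1 had SDs of 1.61 and 1.58.

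The median SD was 1.36 for the 13 fast genes and 0.37 for the 7 slow genes. The classes overlapped: the SDs of the slow genes Mybpc1 (0.81), Myh7 (0.63) and Myoz2 (0.62) lay beside those of the fast genes Myh2 (0.77) and Myl1 (0.62), at percentiles 99.17, 98.53 and 98.47 of all genes. The narrowest of the 37 were the slow troponins Tnnc1 (0.28), Tnni1 (0.33) and Tnnt1 (0.33) and Casq2 (0.37), the calsequestrin of slow and cardiac muscle. The signal of Tnnt1 lay under the median gene of every array. Of the other slow genes, Myh7, Tnni1 and Myoz2 were above it on 1 array each and Casq2 on 6, against 11 for Mybpc1 and 17 for Tnnc1. A dim probe set shows less of a given change in RNA. The part of dim signal in the narrow spread of slow genes, and in their correlations given below, was not tested.

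**Figure D2:**
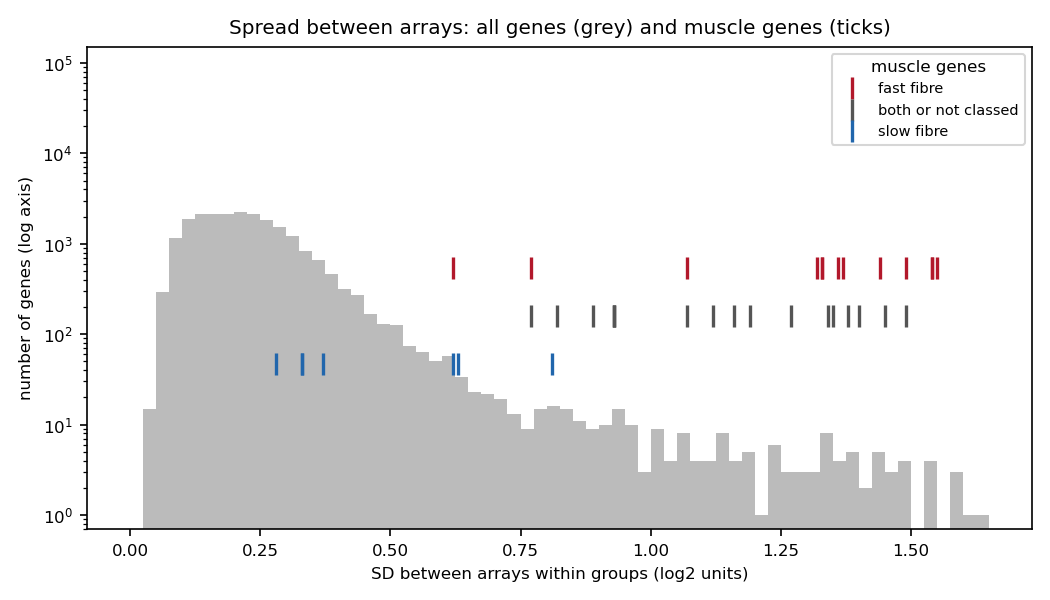
Grey bars count genes (log axis) by their SD between arrays within groups in log2 units; ticks mark the 37 muscle genes by fibre class, at an arbitrary height. Fast-fibre genes gather at the right, with a median of 1.36, while slow-fibre genes have a median of 0.37 and all genes 0.22.

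The variation was shared. Each gene's deviations from its group means were set against those of Ckm over the 22 arrays, so that differences between groups play no part. Of the other 36 genes, 24 had a Pearson r of 0.9 or more with Ckm, none lay from 0.5 to 0.9, and 12 lay under 0.5. Outside the 37, 66 genes reached 0.9, which is 0.298% of them. For each of the 24, the permutation p was 1e-05, the smallest that 100000 resamples can give, and 1.5e-05 after adjustment over the 36 genes. Since the 24 were picked by r, this p adds nothing to r. Replicate 2 of the cold wild type and replicate 1 of the cold null had the Ckm deviations farthest from the median deviation. Without these 2 arrays, the 24 correlations were 0.859 to 0.992.

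The 24 genes span the working parts of the fibre. In the thin filament they were the fast troponins Tnni2 (r = 0.995), Tnnt3 (0.993) and Tnnc2 (0.989), the filament ruler nebulin, Neb (0.994), Acta1 (0.992) and the tropomyosin gene Tpm2 (0.958). In the thick filament Mybpc2 (0.992), the fast light chains Mylpf (0.991) and Myl1 (0.979) and Myh4 (0.988) followed Ckm. The calcium genes were Casq1 (0.994), the release channel Ryr1 (0.991), the fast calcium pump Atp2a1 (0.986) and the voltage sensor Cacna1s (0.973). Among energy genes they were the glycogen phosphorylase Pygm (0.993), the enolase Eno3 (0.993) and the phosphoglycerate mutase Pgam2 (0.96). The Z disc and cytoskeleton gave Actn3 (0.992), Myoz1 (0.989), the giant spring protein titin, Ttn (0.982), Xirp2 (0.978), desmin, Des (0.949), Tcap (0.937) and Ldb3 (0.924). Spearman's rho was 0.869 to 0.993 over the 24.

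By fibre class, 11 of the 13 fast genes and none of the 7 slow genes were among the 24. The fast genes that were not were Myh1 (r = 0.215, rho = 0.163, permutation p = 0.335), the heavy chain of type IIX fibres, and Myh2 (r = -0.0219, rho = -0.11, p = 0.924), that of type IIA fibres, the more oxidative of the fast types. Mb, the oxygen store myoglobin, gave r = 0.412 (rho = 0.27, p = 0.0582), and Actn2, the α-actinin present in all fibres and in heart, r = 0.498 (rho = 0.412, p = 0.0183), falling to 0.203 without the same 2 arrays. The slow genes were Casq2 (r = 0.49, rho = 0.529, p = 0.0211), Mybpc1 (0.304, rho 0.174, p = 0.17), Myh7 (0.231, rho 0.325, p = 0.3), Tnnt1 (0.201, rho 0.152, p = 0.374), Tnnc1 (0.0423, rho 0.181, p = 0.854), Myoz2 (0.0417, rho 0.0107, p = 0.859) and Tnni1 (-0.149, rho -0.287, p = 0.511). After adjustment over the 36 genes, Actn2 (adjusted permutation p = 0.0263) and Casq2 (0.0293) passed by Pearson's r and the other 10 of the 12, Sln among them (r = 0.248, rho = -0.129), did not.

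The levels of Myh1 and Mb show where they parted from Ckm. Myh1 read 6.20, 5.10, 3.79, 3.47 and 4.80 in the cold wild-type pads and 6.68, 4.37, 5.15, 3.81 and 4.24 in the cold null pads. At 28 °C it ran from 3.91 to 7.39 in wild-type mice and from 3.87 to 6.16 in null mice. Replicate 4 of the cold wild type, which had the second highest Ckm of its group, had the lowest Myh1 (3.47) of all 22 pads. Replicate 6 of the wild type at 28 °C had the highest Ckm of its group (10.57) and the lowest Myh1 (3.91). Mb read 5.50, 5.20, 4.28, 3.83 and 4.72 in the cold wild type, and in the same replicate 4 it was likewise the lowest of all pads.

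The other 36 genes were also set against Mb. This comparison was chosen after the values had been seen. Over the 22 arrays the deviations of Mb correlated with those of Mybpc1 (r = 0.944, rho = 0.922, permutation p = 1e-05), the slow myosin-binding protein C, Myh1 (r = 0.901, rho = 0.883, p = 1e-05) and Actn2 (r = 0.852, rho = 0.869, p = 2e-05). Myh2 (r = 0.701, rho = 0.677, p = 9e-05) and Myoz2 (r = 0.643, rho = 0.51, p = 0.00168), a slow-fibre calsarcin of the Z disc, were next. The adjusted p of r over the 36 genes was 0.00018, 0.00018, 0.00024, 0.00081 and 0.0121 for these 5 genes, and by rank Myoz2 did not pass (adjusted permutation p = 0.117). Replicate 1 of the cold null and replicate 5 of the wild type at 28 °C had the Mb deviations farthest from the median deviation. Without these 2 arrays, r was 0.92, 0.854, 0.837, 0.569 and 0.592. By r but not by rank, 5 more genes passed: Tpm2 (r = 0.569), Tnnt1 (0.549), Tcap (0.527), Ttn (0.526) and Sln (0.506), with adjusted permutation p of 0.0342 to 0.048; of these Tpm2, Tcap and Ttn also follow Ckm.

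**Figure D3:**
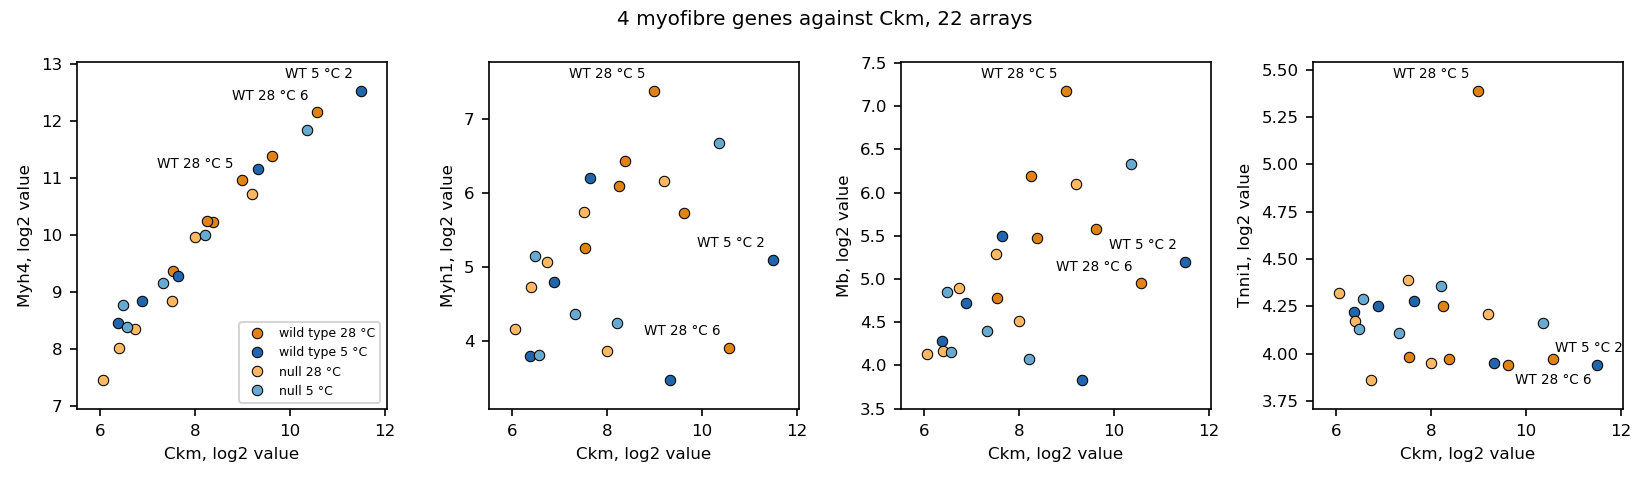
Each point is an array, with its log2 value of Ckm on the x axis and that of Myh4, Myh1, Mb or Tnni1 on the y axis; colours mark the 4 groups. Myh4 rises with Ckm along a line (r = 0.988 of the deviations from group means), whereas Myh1, Mb and Tnni1 do not, and the array with the most Myh1, Mb and Tnni1, replicate 5 of the wild type at 28 °C, is not the one with the most Ckm.

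The mouse in which a gene peaked differed accordingly. Replicate 2 of the cold wild type was highest of all 22 arrays for 25 of the 37 genes, and replicate 2 of the null group at 28 °C lowest for 18. Replicate 5 of the wild type at 28 °C was highest for 10: Myh1, Myh2, Myh7, Mb, Actn2, Mybpc1, Myoz2, Tnnt1, Tnni1 and Tnnc1. In this pad the IIA heavy chain Myh2 read 6.95, against at most 5.19 in the other 21, the slow heavy chain Myh7 5.05 against at most 3.85, the slow troponin I gene Tnni1 5.39 against at most 4.39, and Myoz2 5.06 against at most 4.04. Its Ckm, at 8.99, was the third highest of its group. Sln encodes sarcolipin, a small inhibitor of the calcium pump. It read 6.74 in replicate 1 of the cold null and 2.22 to 3.65 in the other 21 pads, near the lower quartile of all probe sets (2.83 to 2.91). Casq2 peaked in replicate 4 of the null group at 28 °C, at 5.26.

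Fast and slow partners from the same part of the fibre were not seen to vary together. The deviations of 7 such pairs were correlated: Myh4 with Myh7 (r = 0.238, rho = 0.267, permutation p = 0.291), Tnnt3 with Tnnt1 (0.241, rho 0.149, p = 0.283), Tnnc2 with Tnnc1 (0.00995, rho 0.116, p = 0.966), Tnni2 with Tnni1 (-0.155, rho -0.276, p = 0.491), Casq1 with Casq2 (0.492, rho 0.551, p = 0.0204), Myoz1 with Myoz2 (0.0275, rho 0.00621, p = 0.908) and Mybpc2 with Mybpc1 (0.252, rho 0.129, p = 0.259). After adjustment over the 7 pairs none passed, and the smallest adjusted p was 0.143 for r and 0.0641 for rho, both of the calsequestrins. Without the 2 arrays whose deviations of the slow gene lay farthest from the median deviation, r was -0.28 to 0.552. Several of the slow partners were dim on most arrays, and what part this has in the low correlations was not tested.

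Promoters are shown for Ckm, Acta1 and Myh4, which varied together, and for Myh1 and Myh2, which lie beside Myh4 on chromosome 11 and did not follow it. Each line gives the 250 bases before the gene's start from RefSeq on assembly GRCm38.p6, 5′ to 3′ on the gene's strand, with motif matches in capitals. The build behind the array's own annotation was not named in the labels.
Ckm, chr7:19410844-19411093, plus strand: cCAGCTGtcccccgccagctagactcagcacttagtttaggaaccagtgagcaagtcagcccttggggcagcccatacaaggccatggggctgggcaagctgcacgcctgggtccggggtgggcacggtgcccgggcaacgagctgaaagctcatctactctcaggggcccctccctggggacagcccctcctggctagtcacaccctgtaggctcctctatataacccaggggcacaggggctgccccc
Acta1, chr8:123894776-123895025, minus strand: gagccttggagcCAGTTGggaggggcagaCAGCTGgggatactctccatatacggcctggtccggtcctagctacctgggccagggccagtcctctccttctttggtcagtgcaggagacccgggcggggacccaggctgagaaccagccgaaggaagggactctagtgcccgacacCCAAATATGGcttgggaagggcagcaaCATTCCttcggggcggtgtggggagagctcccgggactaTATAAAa
Myh4, chr11:67237562-67237811, plus strand: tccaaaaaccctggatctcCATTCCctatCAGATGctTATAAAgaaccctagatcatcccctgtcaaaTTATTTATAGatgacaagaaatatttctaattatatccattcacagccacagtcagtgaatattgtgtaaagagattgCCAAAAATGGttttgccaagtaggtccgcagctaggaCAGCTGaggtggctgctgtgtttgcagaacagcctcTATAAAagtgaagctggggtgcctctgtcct
Myh1, chr11:67199852-67200101, plus strand: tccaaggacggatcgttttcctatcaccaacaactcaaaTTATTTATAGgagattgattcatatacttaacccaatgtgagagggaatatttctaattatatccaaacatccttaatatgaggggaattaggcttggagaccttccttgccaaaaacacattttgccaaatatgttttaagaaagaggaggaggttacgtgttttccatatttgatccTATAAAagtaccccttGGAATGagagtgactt
Myh2, chr11:67170777-67171026, plus strand: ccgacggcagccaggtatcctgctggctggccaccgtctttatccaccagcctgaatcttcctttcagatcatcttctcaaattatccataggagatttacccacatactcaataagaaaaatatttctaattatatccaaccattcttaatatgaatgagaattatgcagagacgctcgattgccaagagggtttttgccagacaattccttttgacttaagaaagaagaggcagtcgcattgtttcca
The motifs searched on both strands were the E-box CANNTG, bound by MyoD-family factors, the MCAT element CATTCC, bound by TEAD factors, the MEF2 site and the CArG box, which is the site of serum response factor, by their consensus names, and TATAAA, which may overlap a MEF2 match. Ckm held 1 E-box at the far end, Acta1 2 E-boxes, 1 MCAT, 1 CArG box and 1 TATAAA, and Myh4 2 E-boxes, 1 MCAT, 1 MEF2 match, 1 CArG box and 3 TATAAA. Myh1 held 1 MCAT, 1 MEF2 match and 2 TATAAA and no E-box, and Myh2 none of the 5. Ryr1, which follows Ckm, held none of the 5. An E-box was present in 7 of 7 slow genes, none of which reached r of 0.9 with Ckm. It was present in 7 of the 9 fast genes with a sequence, and the fast genes without it were Myh1 and Myh2. Whether the motifs separate the genes that follow Ckm from the others was not tested. Such matches describe letters in this window and do not show binding. Sequences were found for 30 of the 37 genes. Of these, 86.7% held an E-box, against 69.3% of 27025 genes with a promoter sequence, and 30.0% held MCAT, against 14.4%. MEF2 matches were in 23.3% against 3.42%, CArG boxes in 10.0% against 1.62% and TATAAA in 16.7% against 14.3%.

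Other muscle genes, from a list of 65 that are not among the 37, were set against Ckm as a description. Of the 61 measured, 32 had r of 0.9 or more with Ckm, 21 lay from 0.5 to 0.9 and 8 were lower. The calcium buffer of fast fibres Pvalb (r = 0.996) and the AMP deaminase Ampd1 (0.989) were nearest, and the slow light chain Myl3 (-0.56) was farthest. Outside both lists the 10 named genes most like Ckm over the 22 arrays were Klhl31 (r = 0.985), Fitm1 (0.972), Adssl1 (0.965), Mypn (0.963), Asb2 (0.962), Hjv (0.958), Rbfox1 (0.954), Pde4dip (0.952), Rragd (0.952) and Eef1a2 (0.945).

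Other marker lists, of muscle and of other cells, were set beside Ckm in the same way, as the mean of each list per array. Genes of the neuromuscular junction followed it (r = 0.887, rho = 0.855, permutation p = 1e-05), while stem cell and myogenic regulator genes did so by r (0.686, p = 0.00062) and not by rank (rho = 0.36, p = 0.101). Cardiac markers gave r = 0.57 (rho = 0.554, permutation p = 0.00586). The mean of these 10 genes was 3.46 to 3.75 on every array, under the level of the median gene (4.63 to 4.77). Smooth muscle markers gave r = 0.5 (rho = 0.504, p = 0.0186) and lymphocyte markers r = -0.486 (rho = -0.511, p = 0.0218). By level, Ckm lay farthest from its median in replicate 2 of the cold wild type and replicate 6 of the wild type at 28 °C. Without this pair of arrays, these 5 lists gave r of 0.826, 0.595, 0.456, 0.467 and -0.423. White adipocyte (r = -0.0268), brown and beige adipocyte (0.37), macrophage (0.0345), endothelial (-0.189), skin and gland epithelium (0.306) and nerve (0.0355) markers did not pass, with adjusted permutation p of 0.156 to 0.905 over the 12 lists. The adjusted p of r was 6e-05 for the junction, 0.00248 for the regulator, 0.0176 for the cardiac and 0.0437 for each of the smooth muscle and lymphocyte lists. What part cells other than muscle fibres have in the spread of the muscle genes was not tested.

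Cold was compared with 28 °C in each genotype, in 1 limma fit over all genes with Benjamini-Hochberg adjustment, a gene being called at an adjusted p under 0.05. None of the 37 genes was called in wild-type mice, where 16.7% of all genes were, and none in null mice, where 13.2% were. At an unadjusted limma p under 0.05 there was 1 of 37 in each genotype, against 28.3% and 24.2% of all genes. In wild-type mice it was Mb, at 3.83 to 5.50 in the cold and 4.78 to 7.18 at 28 °C (log2 change -0.98, SE 0.46, limma adjusted p = 0.16). In null mice it was Casq2, which read 4.65, 4.48, 3.60, 3.64 and 4.24 in the cold and ran from 4.01 to 5.26 at 28 °C (-0.48, SE 0.21, limma adjusted p = 0.161). Both pairs of groups overlapped. In no gene of the 37 did the cold and the 28 °C arrays of a genotype fail to overlap, as they did in 11.8% of all genes in wild-type and 9.11% in null mice.

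The estimates and their intervals show how little the arrays fix these effects. Ckm changed with cold by -0.55 in wild-type mice (95% interval -2.28 to 1.17, SE 0.83, limma adjusted p = 0.728) and by 0.47 in null mice (-1.25 to 2.20, adjusted p = 0.799). For Acta1 the changes were -0.88 (-2.35 to 0.59, adjusted p = 0.461) and 0.15 (-1.31 to 1.62, adjusted p = 0.934). Over the 37 genes the median change was -0.50 in wild-type mice, from -1.13 for Myh1 to 0.27 for Myh7, with 34 estimates below 0. In null mice it was 0.44, from -0.48 for Casq2 to 0.86 for Sln, with 30 above 0. The medians over all genes were 0.01 and 0.00. Single pads moved these values: without replicate 2 of the cold wild type the wild-type median was -1.19 and Ckm -1.34, and without replicate 3 they were -0.14 and -0.06. Without replicate 1 of the cold null, the null median was -0.02 and Ckm -0.17. Since 24 of the genes rank the arrays almost as Ckm does, the signs of these estimates are not separate observations.

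**Figure D4:**
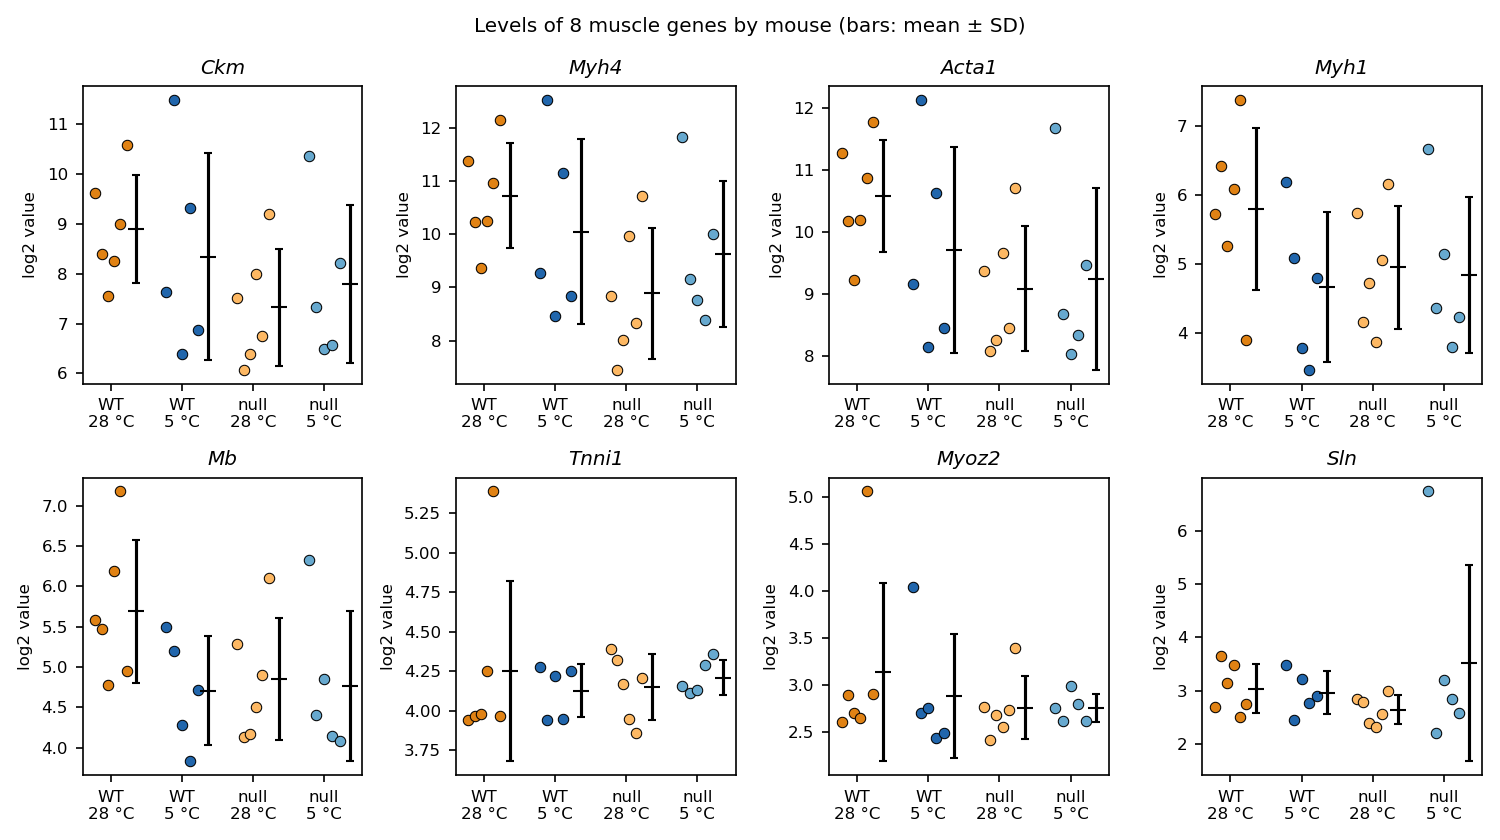
Points are the log2 values of 8 muscle genes in each mouse by group, and bars beside them give the mean ± SD (n = 6, 5, 6 and 5). The groups overlap in all 8 panels, and single mice stand apart, such as replicate 5 of the wild type at 28 °C in Tnni1 (5.39) and Myoz2 (5.06) and replicate 1 of the cold null in Sln (6.74).

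By role in the fibre, the median cold changes in wild-type mice were -0.64 for the 9 thin filament genes, -0.50 for the 8 thick filament genes, -0.36 for the 9 genes of the Z disc and cytoskeleton, -0.30 for the 6 calcium genes and -0.55 for the 5 energy and oxygen genes. In null mice the same groups gave 0.17, 0.39, 0.48, 0.61 and 0.47. The medians for fast genes were -0.60 (wild type) and 0.58 (null), and those for slow genes -0.12 and 0.00. Of the 61 other muscle genes measured, 0 were called in either genotype, with medians of -0.11 and 0.26; at an unadjusted limma p under 0.05 there were 2 and 1.

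The cold effects were also compared between the genotypes and averaged over them. None of the 37 genes was called for a difference between the genotypes, where 0% of all genes were, and none at an unadjusted limma p under 0.05, where 5.13% of all genes were. The difference, null minus wild type, was 1.03 for Ckm (95% interval -1.41 to 3.47) and 1.03 for Acta1 (-1.04 to 3.10), with a median of 0.91 over the 37, which was 0.39 without replicate 1 of the cold null and 1.53 without replicate 2 of the cold wild type. For the average of both cold effects none was called either, against 24.8% of all genes, and none had an unadjusted limma p under 0.05, against 34.2%. This median was -0.01. Without replicate 5 of the wild type at 28 °C, Myh7 was called for the average (0.51, limma adjusted p = 0.034), as were 23.8% of all genes. The array left out was the only one with Myh7 above the median gene (5.05). On the rest it was dim, at 2.49 to 3.85.

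A planned fit took the mean of the 61 other muscle genes as a covariate, which compares pads at like muscle signal. In it 3 of the 37 genes were called with cold in wild-type mice, where 17.3% of all genes were, and all 3 were lower: Tpm2 (-0.56, limma adjusted p = 0.00317), Acta1 (-0.71, adjusted p = 0.00878) and Eno3 (-0.49, adjusted p = 0.0118). The same 3 were called for the average of the cold effects, at -0.36, -0.52 and -0.34, where 25% of all genes were called. Both shares of the 37 are below these backgrounds. In the fit without the covariate, the 10 smooth muscle markers had median cold changes of -0.04 in wild-type and -0.13 in null mice. Of the 10, 3 and 2 estimates were above 0, the highest being Synm (0.24 and 0.29). Acta2, the smooth muscle actin, fell by 0.43 in wild-type and by 0.58 in null mice (limma adjusted p = 0.0199 and 0.00272). Tagln fell by 0.39 in wild-type mice (adjusted p = 0.0145). None of the 10 was called higher, 2 were called lower in the wild type and 1 was called lower in the null. Of all genes, 16.7% and 13.2% were called in either direction. The mean of the smooth muscle list per array was 5.88 to 6.17 in cold and 6.02 to 6.27 in 28 °C wild-type pads. In null pads it was 5.84 to 6.15 and 6.00 to 6.32. Tpm2 is also made in smooth muscle and the actin genes are alike in sequence; their part in the change was not tested.

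Fast and slow partners were compared between temperatures as the difference of their log2 values in each mouse. Since the slow partners did not follow the fast genes, this difference keeps most of the fast gene's spread: in the cold wild type the SD was 2.08 for Casq1 minus Casq2 and 2.20 for Casq1 alone. The cold minus 28 °C change of this difference was tested with an exact two-sided permutation test over 462 splits, 14 tests in all, whose smallest possible p is 0.00216. No test passed: the smallest p was 0.193 (Casq1 minus Casq2 in null mice, a change of 1.05) and adjusted p were 0.832 to 0.84. Myh4 minus Myh7 changed by -0.94 in wild-type mice (exact permutation p = 0.266) and by 0.37 in null mice (p = 0.654). In wild-type mice its values were 4.97 to 8.71 in the cold and 5.91 to 8.65 at 28 °C, so the groups overlapped over nearly their whole range.

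Null and wild-type mice were compared at each temperature. At 28 °C none of the 37 genes was called, against 0.194% of all genes, and at 5 °C none, against 0.149%. At an unadjusted limma p under 0.05, however, 21 of the 37 were lower in null mice at 28 °C, where 3.01% of all genes were, and none was higher. The smallest adjusted p among them was 0.534 (Tpm2, -1.32, 95% interval -2.31 to -0.33). Ttn had the largest estimate (-1.89, -3.37 to -0.41, adjusted p = 0.567), and Myh4 gave -1.83 (-3.30 to -0.36, adjusted p = 0.585), Acta1 -1.49 (-2.89 to -0.10, adjusted p = 0.7) and Ckm -1.57 (-3.22 to 0.07, adjusted p = 0.76).

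These 21 genes came almost wholly from the set that follows Ckm: 20 of the 25 genes made up of Ckm and its 24 followers, and 1 of the other 12, Actn2. Fast genes gave 10 of 13 and slow genes 0 of 7, and of the 61 other muscle genes 14 were lower at this p and none higher. By role, 7 of the 9 genes of the Z disc and cytoskeleton, 6 of the 9 thin filament genes, 4 of the 8 thick filament genes, 3 of the 6 calcium genes and 1 of the 5 energy and oxygen genes were among them, with median differences of -1.42, -1.49, -0.84, -1.48 and -1.32. The median genotype difference at 28 °C was -1.57 in the 25 genes and -0.29 in the other 12, against 0.01 over all genes. The 25 rank the pads nearly alike, so their count is not 25 separate observations. No gene of the 37 had null and wild-type arrays at 28 °C that did not overlap, against 0.555% of all genes. For Ttn, wild-type pads ran from 7.75 to 10.11 and null pads from 5.84 to 8.87. Leaving out each array in turn gave medians of the 37 from -1.61 to -1.20 and left no gene called, but it moved the count of 21. Without wild-type replicate 1, 5 or 6 at 28 °C, 6, 9 and 8 of the 37 had an unadjusted limma p under 0.05. Without null replicate 2, 3 or 5 at 28 °C, 6, 6 and 8 did. With every array kept, 6.74% of all genes had such a p in either direction. The share of all genes without these arrays is not given here. How far the smaller counts stand from their own background was therefore not tested. With the muscle covariate the genotype estimates at 28 °C were -0.12 for Ckm, -0.27 for Acta1, -0.57 for Myh4 and -0.61 for Ttn, and the median was -0.24. The covariate follows Ckm (r = 0.974 of the deviations from group means). Of its 61 genes, 58 had estimates below 0 for genotype at 28 °C (median -0.60), so smaller estimates are built into this fit. In that fit 7 of the 37 were lower at an unadjusted limma p under 0.05 (Tpm2, Ttn, Des, Atp2a1, Tcap, Myh4 and Neb), where 2.8% of all genes were, and the smallest adjusted p was 0.356.

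At 5 °C the genotype difference had a median of -0.47 over the 37 genes, from -0.74 for Actn3 to 0.55 for Sln. Casq2 alone had an unadjusted limma p under 0.05 (-0.49, SE 0.22, limma adjusted p = 0.719), where 6.65% of all genes did, and none of the 37 had genotypes that did not overlap, against 1.22%. For Ckm the difference was -0.55 (95% interval -2.35 to 1.25). Without replicate 2 of the cold wild type it was 0.24 and the median of the 37 was 0.17; without replicate 1 of the cold null they were -1.19 and -0.98. The Sln estimate rested on replicate 1 of the cold null and was -0.26 without it.

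**Figure D5:**
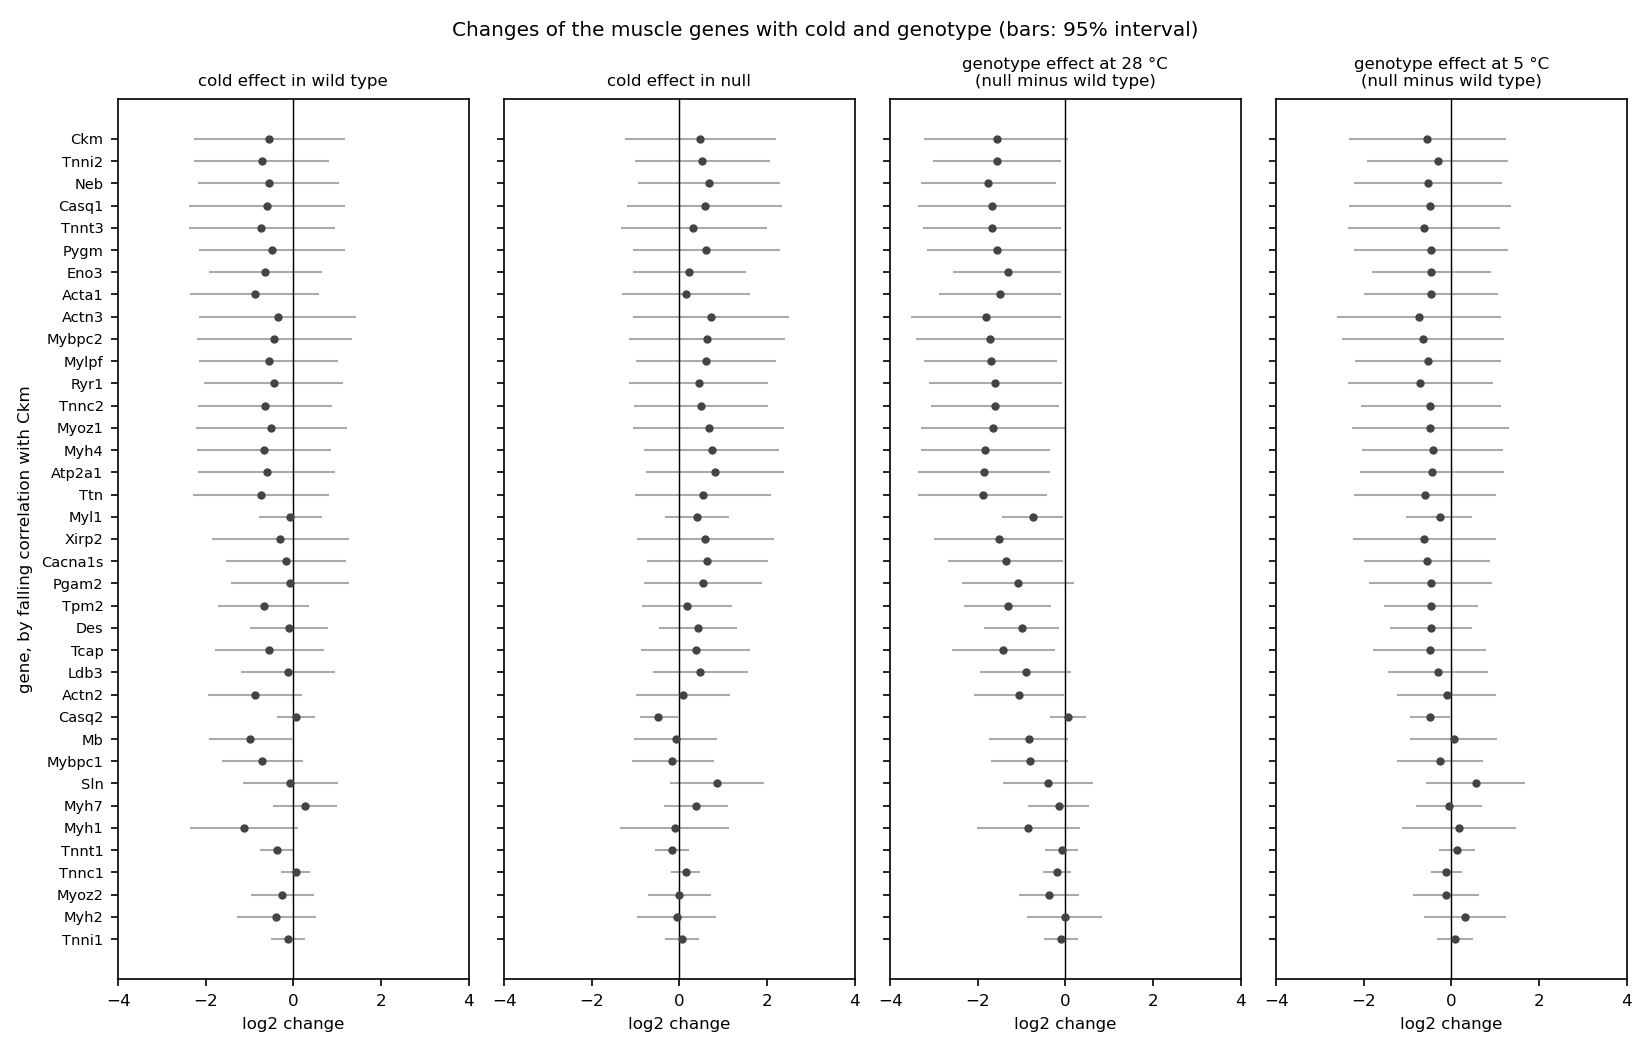
Points are log2 changes from the limma fit and bars their 95% intervals for the 37 genes in 4 comparisons, in the order of falling correlation with Ckm. Intervals of the genes that follow Ckm are wide and cross 0 in both cold comparisons and for genotype at 5 °C, while most lie below 0 for genotype at 28 °C, where no gene passed adjustment over all genes.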

How the data were processed

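The authors deposited log2 values per probe set for 22 arrays; per the submitters' processing notes they were made with RMA, whose version the labels leave out, as they do the annotation build. RMA as a method normalizes by quantiles, so a value is relative to its whole array, and the number of arrays limits the precision. Of 41345 probe sets, 23521 had 1 gene symbol, 1814 several and 16010 none; where a gene had several (1082 genes) the brightest was taken, leaving 22180 genes. Values were used as deposited, with no filter. The 4 groups were fitted with limma 3.58.1 in R 4.3.3 (18 residual and 3.35 prior degrees of freedom), a step tested on simulated data. Correlations used deviations from group means with 100000 permutations, in numpy 2.4.6 and scipy 1.17.1; tables and figures used the data.table package (1.17.8), pandas 2.3.3 and matplotlib 3.10.9. The genes and lists were chosen with earlier results of these data known. Named in full are Ckm, Acta1, members called in any fit shown, the 7 isoform pairs, the 4 widest and narrowest genes and the 10 outside genes most like Ckm, predicted genes passed over; other genes named with values were chosen after their values were seen. Each replicate is a single mouse, and litters and cages are not named in the labels. Replicate numbers were checked as pairs: over 31 same-numbered pairs of arrays r was -0.246 to 0.35 and 6 exceeded 0.1, so they were not used. Alternatives were other scaling, filters on dim genes, averaging probe sets, other variance settings, array weights, fitting only the groups compared, a replicate block, a muscle covariate, and leaving out arrays.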

Additional observations from a re-analysis of the deposited data

Results flagged for a closer look

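In groups of 5 or 6 mice, the highest or lowest array was examined for standing apart from its group by Dixon's criterion, over 152 combinations of group and gene (the 37 genes and Ppara). It did so in 15, where chance gives about 1 in 20, and the genes are not independent of each other. Replicate 1 of the cold null group was the high array for 7 genes: Sln (6.74), Pgam2 (6.47), Des (9.24), Myl1 (9.40), Cacna1s (7.91), Tpm2 (8.39) and Tcap (8.09). Replicate 5 of the wild type at 28 °C was the high array for 4 genes of slow or oxidative fibres, Myoz2 (5.06, next 2.91), Myh2 (6.95, next 4.34), Tnni1 (5.39) and Tnnt1 (4.54). Replicate 6 of the null group at 28 °C was high for Tcap (6.90) and Myoz2 (3.39), and replicate 1 of the cold wild type for Myoz2 (4.04). The slow heavy chain Myh7 was lowest in replicate 5 of the cold wild type (2.67, next 3.49).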

How the results depend on the processing

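No gene of the 37 was called in any of the 6 comparisons after array medians were subtracted or after quantile normalization. Nor was any called with probe sets averaged per gene, with trend and robust moderation, or with array weights. Without the dimmest 25% or 50% of genes, which left out 1 and 9 of the 37, none of the rest was called. When only the groups compared were fitted, none was called in the 4 comparisons between 2 groups. With the muscle covariate 3 were called for cold in wild-type mice and 3 for the average. Without the 2 cold arrays highest in Ckm, a choice made after seeing the data that by its construction lowers the cold groups, 2 were called for cold in wild-type mice, where 14.3% of all genes were (Tpm2, -1.19, limma adjusted p = 0.0272, and Tcap, -1.18, adjusted p = 0.0471) and 1 for the average, where 21.9% were (Tpm2, -0.72, adjusted p = 0.045). Leaving out single arrays gave 0 to 1 called for the average and 0 in the other 5 comparisons.

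Replicate numbers did not pair the mice; as a block they left 0 called in every comparison, turned Myoz1 minus Myoz2 in wild-type mice to 0.09, and turned the average cold effect of Ckm to 0.32 and of Ttn to 0.19. Estimates that no test called changed sign with other settings, among them some as large as the medians of the 37 genes. The average cold effect of Ckm was 0 with array medians subtracted and 0.13 with probe sets averaged. With the covariate the cold effects in null mice were -0.09 for Ckm and -0.32 for Acta1, the average was -0.13 for Myh4, and genotype effects at 5 °C were 0.14, 0.12, 0.17 and 0 for Ckm, Acta1, Myh4 and Ttn. Without the 2 cold arrays, cold gave 0.06 for Sln in wild-type mice, -0.17, -0.46 and -0.08 for Ckm, Acta1 and Ttn in null mice and -0.55 for the average of Myh4, and genotype at 5 °C gave -0.17, -0.21 and -0.39 for Myh1, Mb and Sln.

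Leaving out single arrays turned the sign of estimates that no test called. For cold in wild-type mice the ranges were Sln -0.20 to 0.06 and Casq2 0 to 0.15. For cold in null mice the ranges were Ckm -0.17 to 0.85, Acta1 -0.46 to 0.48, Myh1 -0.56 to 0.16, Mb -0.48 to 0.16 and Ttn -0.08 to 0.89. For the average of the cold effects the ranges were Ckm -0.43 to 0.20, Myh4 -0.28 to 0.23, Ttn -0.44 to 0.13 and Sln -0.01 to 0.56. For genotype at 28 °C the ranges were Casq2 -0.08 to 0.17. For genotype at 5 °C the ranges were Ckm -1.19 to 0.24, Acta1 -1.07 to 0.15, Myh4 -0.98 to 0.19, Myh1 -0.28 to 0.56, Mb -0.34 to 0.25, Ttn -1.24 to 0.07 and Sln -0.26 to 0.87. For the fast minus slow pairs the ranges were Myh4 minus Myh7 in null mice -0.13 to 0.78, Tnnt3 minus Tnnt1 in wild-type mice -1.01 to 0.13, Tnnt3 minus Tnnt1 in null mice -0.05 to 0.83, Tnnc2 minus Tnnc1 in null mice -0.18 to 0.72, Tnni2 minus Tnni1 in null mice -0.08 to 0.77, Myoz1 minus Myoz2 in wild-type mice -1.10 to 0.31 and Mybpc2 minus Mybpc1 in wild-type mice -0.41 to 0.93. The causes were not tested. Depth is not defined for arrays; dim probe sets such as that of Tnnt1 show less of a change.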
